A study of Mus musculus with 6 samples.

Results

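The 55 genes described here encode the enzymes that lysosomes use to break down proteins, sugars and lipids, the proteins of the lysosomal membrane, and the receptors and enzymes that route hydrolases to the organelle. They were chosen by symbol from a hand-written list of lysosomal genes. The rule itself uses no measured value, but the list was made with earlier results of these data known. All 55 were found among the 22105 gene rows of the count table, and 52 of them were among the 12288 genes that passed the filter on low counts and were tested. Transcriptomic RNA-seq had been performed on 4T1, a mouse mammary carcinoma cell line grown in culture, after 24 h with the vehicle DMSO or with 10 µM P3FI-90, an inhibitor of the histone H3K9 demethylase KDM3B. Each group had 3 libraries, and no other genotype, agent or time was included. The labels do not say that the libraries came from separate cultures, so p-values measure the spread between these libraries, which may be technical.

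Lysosomes are acidic organelles in which cathepsins cleave proteins, glycosidases and sulfatases take sugar chains apart, and lipases, ceramidases and sphingomyelinases degrade lipids. Most soluble hydrolases receive a mannose 6-phosphate tag in the Golgi and are carried to the organelle by mannose 6-phosphate receptors. Membrane proteins such as LAMP1 and LAMP2 line the limiting membrane, and transporters such as NPC1 and cystinosin export the products of digestion. Many of these genes carry E-box motifs that transcription factors of the TFEB family can bind. In tumor cells, lysosomes take part in nutrient recycling and in the secretion of proteases, and the interferon adaptor STING is degraded in them.

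Counts on genes ranged from 31327094 to 37395732 per library. The keratins and adhesion genes that mark mammary epithelium were present, with summed normalized counts of the 8 epithelial markers between 119489 and 125420 in DMSO and between 61976 and 64861 after P3FI-90. All 8 were lower after P3FI-90 in edgeR's quasi-likelihood test, where 39.4% of all genes tested were lower. Normalized counts are read counts scaled to a common effective library size by edgeR's TMM method. Of 11 markers of leukocytes and macrophages, cell types that are rich in lysosomes, Laptm5, Tyrobp and Adgre1 had 0 counts in every library. The summed level of the 11 was 919 to 966 normalized counts in DMSO and 593 to 746 after P3FI-90, most of it from Cd14 and Cd68. The 4 that were tested went both ways, as Cd14 fell from 508 ± 33.7 to 215 ± 23.3 normalized counts, Csf1r rose from 41.5 ± 18.6 to 121 ± 13.2, and 2 did not pass the test. The 7 fibroblast markers summed to 1411 to 1479 normalized counts in DMSO and 1001 to 1096 after P3FI-90, most of it from Pdgfra, and Lum and Thy1 had 0 counts in every library. The part of the epithelial, leukocyte and fibroblast markers in the lysosomal results was not tested. Values are relative to the RNA of a library, so fewer cells and less RNA per cell cannot be told apart.

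P3FI-90 treatment did not move the lysosomal genes as one block. Of the 52 tested genes, 23 were higher, 22 were lower and 7 did not pass edgeR's quasi-likelihood test at an adjusted p of 0.05, so that 86.5% were called, against 79.3% of all genes tested. The share that was higher, 44.2%, compares with 39.9% of all genes tested, and the share that was lower, 42.3%, with 39.4%, so neither count stands far from the background. The median log2 fold change of the 52 genes was 0.085, against 0.013 over all genes tested. The rises reached further than the falls. Dpp7, Npc1, Ctns, Galc, Neu1, Tpp1 and Hexa, 7 genes in all, rose by more than 1 on the log2 scale, and Gusb fell by more than 1. Over all genes tested, 12.7% rose and 10.6% fell by that much. In 46 of the 55 genes, Ctsk among them, the 3 P3FI-90 libraries lay entirely above (24 genes) or entirely below (22 genes) the 3 DMSO libraries, against 41.0% above and 40.2% below among all genes tested. A single gene taken alone cannot reach a two-sided p below 0.1 by exact permutation of 3 and 3 libraries. Each adjusted p below therefore comes from the edgeR fit, which shares its estimate of spread between genes. Values with ± are means and SDs of the 3 libraries of a group, and log2 changes are P3FI-90 over DMSO.

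**Figure D1:**
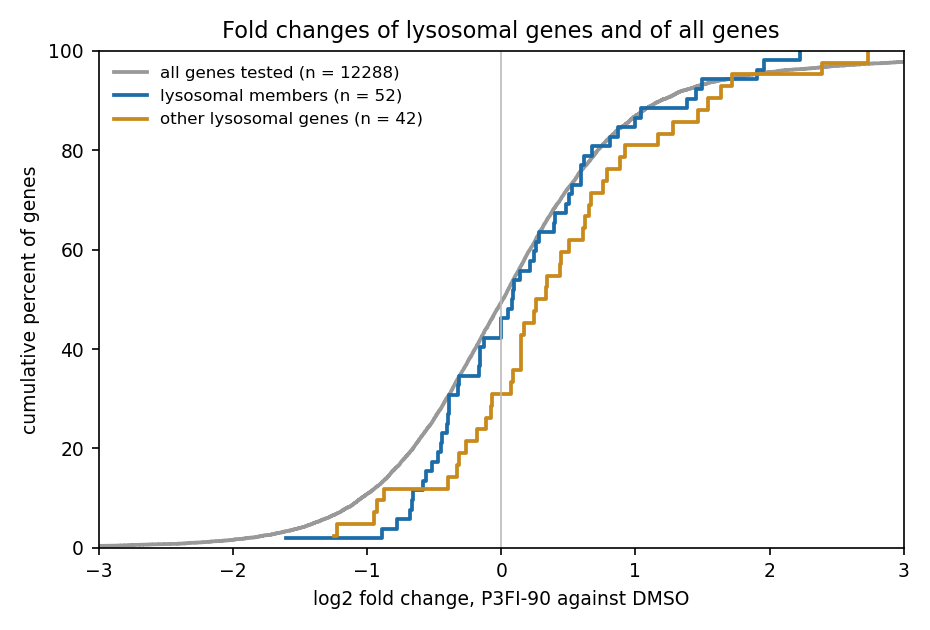
Cumulative percent of genes (vertical axis) at or below each log2 fold change of P3FI-90 against DMSO (horizontal axis) for all 12288 genes tested (grey), the 52 lysosomal members tested (blue) and 42 other lysosomal genes (orange). The blue curve crosses the middle at a median of 0.085, close to the grey curve at 0.013, and the orange curve lies to the right over most of its range with a median of 0.30.

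The direction of the small changes depended on how the libraries were scaled. With libraries scaled to equal total counts, the log2 fold changes of all genes rose by a median of 0.21, and 30 lysosomal genes were higher (57.7%, against 50.3% of all genes tested) and 17 lower (32.7%, against 29.6%). The median of the lysosomal genes lay 0.072 above that of all genes with either scaling, but with no filter on low counts the difference was -0.021, where 15653 genes were tested. Read together, the 55 genes took 0.594% ± 0.0051 of the counts in DMSO and 0.720% ± 0.0044 after P3FI-90 (SD, n = 3). In TMM-normalized counts their sum went from 224248 ± 1563 to 234370 ± 1385, and the 3 P3FI-90 libraries were above the 3 DMSO libraries on both scales. The role groups differed in TMM-normalized counts. Membrane proteins summed to 57601 to 58817 in DMSO and 69280 to 70844 after P3FI-90. Peptidases went from between 73897.5 and 75065 to between 67928 and 69832. The sums of glycosidases and sulfatases were also lower, and those of lipid hydrolases, cofactors and sorting genes higher. Single abundant genes weigh heavily in these sums, so a sum does not give the direction of the genes in its group. Among peptidases Ctsl went from 32590 to 24878, among glycosidases Gusb from 6934 to 2281, and among sorting genes Igf2r from 8195 to 11788.

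**Figure D2:**
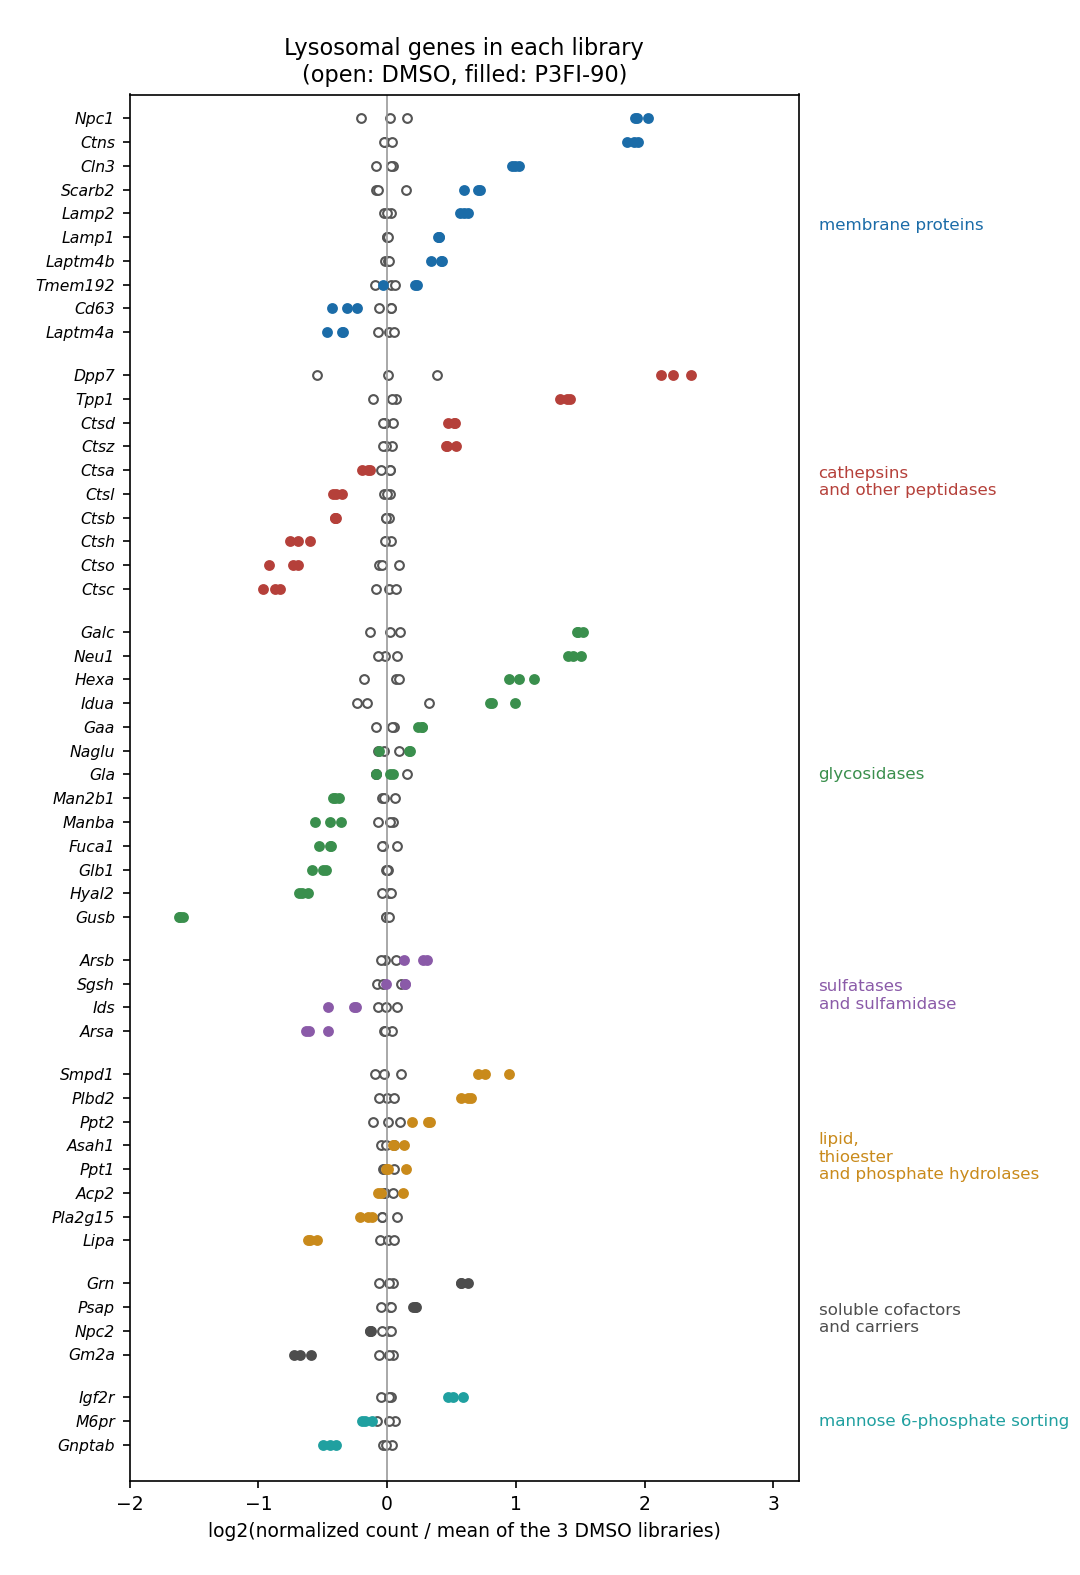
Each row is one of the 52 tested lysosomal genes, grouped by role, and each point is one library, placed by log2 of its normalized count over the mean of the 3 DMSO libraries (horizontal axis). Open points are DMSO and filled points P3FI-90 libraries. Npc1, Ctns and Dpp7 sit near 2 after P3FI-90, Gusb near -1.6, and the filled points of Gla, Acp2, Ppt1, Asah1, Naglu, Sgsh and Tmem192 mix with the open ones.

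Of 10 genes of the lysosomal membrane, 7 were higher after P3FI-90, 2 lower and 1 not past the test, where 39.9% of all genes tested were higher and 39.4% lower. Npc1 (ENSMUSG00000024413), which moves cholesterol out of the lysosome, had 699, 597 and 766 normalized counts in DMSO and 2805, 2608 and 2646 after P3FI-90. The groups were far apart, and the log2 change was 1.96 (SE 0.075, adjusted p = 1.28e-11) from the edgeR test. Ctns (ENSMUSG00000005949), which encodes the cystine exporter cystinosin, had 513, 512 and 533 normalized counts in DMSO and 1885, 1965 and 2000 after P3FI-90, a log2 change of 1.91 (SE 0.060, adjusted p = 1.84e-12). Cln3, a membrane protein whose loss causes a childhood form of neuronal ceroid lipofuscinosis, rose from 1258 ± 61.3 to 2511 ± 51.3 normalized counts, a log2 change of 1.00. Per kb of transcript, these 3 genes started from 119, 191 and 393 normalized counts in DMSO, against 10264 for Lamp1.

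The glycoproteins of the membrane rose by less. Lamp1 (ENSMUSG00000031447) had 22819, 22837 and 22977 normalized counts in DMSO and 30298, 30250 and 30061 after P3FI-90, a log2 change of 0.40 (SE 0.026, adjusted p = 3.95e-09), with a spread between libraries far smaller than the difference. Lamp2, the receptor for chaperone-mediated autophagy in one of its isoforms, rose from 5737 ± 114 to 8661 ± 187 normalized counts, a log2 change of 0.59. Scarb2, which encodes LIMP-2, the carrier of glucocerebrosidase to the lysosome, rose from 1046 ± 96.6 to 1671 ± 77.6 normalized counts, a log2 change of 0.68. The tetraspanin gene Cd63 went the other way, from 12065, 12888 and 12849 normalized counts in DMSO to 10150, 9381 and 10706 after P3FI-90, a log2 change of -0.32 (SE 0.046, adjusted p = 1.57e-05). The related transmembrane genes Laptm4a and Laptm4b also moved apart. Laptm4a fell from 9244 ± 404 to 7070 ± 322 normalized counts (log2 fold change -0.39), whereas Laptm4b rose from 3323 ± 36.0 to 4371 ± 147 (log2 fold change 0.40). Tmem192, a structural membrane protein, had 944, 865 and 963 normalized counts in DMSO and 1083, 1076 and 903 after P3FI-90, with overlapping groups and a log2 change of 0.14 (SE 0.080, adjusted p = 0.118).

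Among the peptidases, 4 of the 10 tested genes were higher and 6 lower, where 39.9% of all genes tested were higher and 39.4% lower. The rises of Dpp7 and Tpp1, both of which remove short peptides from the amino end of proteins, were larger than those of the cathepsins. Dpp7 (ENSMUSG00000026958) had 175, 91.5 and 135 normalized counts in DMSO and 584, 624 and 687 after P3FI-90, a log2 change of 2.23 (SE 0.17, adjusted p = 2.47e-08). It varied among the DMSO libraries, and leaving out each library in turn gave log2 fold changes from 2.02 to 2.46. Tpp1 (ENSMUSG00000030894) had 1329, 1502 and 1468 normalized counts in DMSO and 3844, 3763 and 3633 after P3FI-90, a log2 change of 1.39 (SE 0.055, adjusted p = 1.93e-11). The aspartic protease gene Ctsd and the carboxypeptidase gene Ctsz rose by less, with log2 changes of 0.51 and 0.49. Ctsz went from 7896 ± 187 to 11057 ± 323 normalized counts and Ctsd from 7134 ± 213 to 10134 ± 197.

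Of the 6 cysteine cathepsins that were tested, Ctsz rose and the other 5, Ctsc, Ctso, Ctsh, Ctsb and Ctsl, fell. Among all genes tested, 39.9% were higher and 39.4% lower. Ctsc (ENSMUSG00000030560), which activates granule proteases in leukocytes, had 1483, 1592 and 1649 normalized counts in DMSO and 859, 806 and 883 after P3FI-90, a log2 change of -0.89 (SE 0.064, adjusted p = 1.16e-08). Ctso had 156, 173 and 158 normalized counts in DMSO and 86.1, 101 and 98 after P3FI-90, a log2 change of -0.77 (SE 0.18, adjusted p = 0.00128). Ctsh, an aminopeptidase, fell from 4864 ± 86.0 to 3038 ± 165 normalized counts (log2 fold change -0.68). The proteases Ctsb and Ctsl, which tumor cells can secrete, fell by similar amounts. Ctsl (ENSMUSG00000021477) had 32100, 33127 and 32543 normalized counts in DMSO and 25534, 24787 and 24313 after P3FI-90, a log2 change of -0.39 (SE 0.029, adjusted p = 1.61e-08). Ctsb went from 15232 ± 133 to 11532 ± 50.8 normalized counts, a log2 change of -0.40. Ctsa, a serine carboxypeptidase that also protects neuraminidase and β-galactosidase, had a log2 change of -0.16 (SE 0.044, adjusted p = 0.00454), which lost its call with total counts (0.057, adjusted p = 0.252) and with the trend on transcript length and GC content removed (-0.064, adjusted p = 0.200).

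Ctsk, Ctss and Ctsf, cathepsins known from osteoclasts, antigen-presenting cells and various tissues, did not pass the filter on low counts. Ctsk had 0 counts in all 3 DMSO libraries and 5, 8 and 21 after P3FI-90, at least 9.90-fold higher against a floor of 3 counts over the DMSO group, which covers counting error only. Without P3FI-90 library 3, which holds 21 of the 34 counts, the bound is 5.56-fold. Ctss had 15 counts in the first DMSO library and 0 in the other libraries, so it rests on 1 library and no fold is given. Ctsf had 0 counts in every library.

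Of the 13 glycosidases, 5 were higher, 6 lower and 2 did not pass the test, and their fold changes spread widely. Over all genes tested, 39.9% were higher and 39.4% lower. Galc (ENSMUSG00000021003), which removes galactose from myelin lipids, had 1133, 1259 and 1329 normalized counts in DMSO and 3554, 3453 and 3472 after P3FI-90, a log2 change of 1.49 (SE 0.059, adjusted p = 1.95e-11). Neu1 (ENSMUSG00000007038), the lysosomal sialidase, had 519, 555 and 501 normalized counts in DMSO and 1390, 1426 and 1487 after P3FI-90, a log2 change of 1.45 (SE 0.068, adjusted p = 1.12e-10). In both genes every P3FI-90 library was above every DMSO library. Hexa, which takes part in the breakdown of gangliosides, rose from 311 ± 31.5 to 639.8 ± 44.6 normalized counts (log2 fold change 1.04). Idua, which removes iduronic acid from heparan and dermatan sulfate, rose from 205 ± 45.5 to 375 ± 28.9 (log2 fold change 0.87). Gaa, the acid glucosidase that digests glycogen, rose from 2698 ± 139.6 to 3230 ± 33.9 (log2 fold change 0.26).

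Gusb (ENSMUSG00000025534), the β-glucuronidase often used as a reference gene in RT-qPCR, had 6897, 6903 and 7003 normalized counts in DMSO and 2259, 2269 and 2314 after P3FI-90. The log2 change was -1.60 (SE 0.035, adjusted p = 5.98e-14), the largest fall among the 52 genes, and the values of the 3 libraries of each group lay close together. With each of the 16 alternatives its log2 fold change stayed between -1.64 and -1.39. Hyal2, a hyaluronidase, fell from 2091 ± 48.8 to 1329 ± 33.4 normalized counts (log2 fold change -0.65). Glb1, the acid β-galactosidase, fell from 2015 ± 9.81 to 1408 ± 52.5 (log2 fold change -0.52). The glycoprotein enzymes Fuca1, Manba and Man2b1, which remove fucose and mannose, all fell, with log2 changes of -0.47, -0.45 and -0.40. The related genes Fuca2 and Man2b2, added after their values were seen, rose, with log2 changes of 0.51 and 0.66. Gla, which is deficient in Fabry disease, had 457, 541 and 458 normalized counts in DMSO and 492, 501 and 457 after P3FI-90, with overlapping groups and a log2 change of -0.0035 (SE 0.099), so neither direction was resolved. Naglu had 499, 513 and 556 normalized counts in DMSO and 499.7, 587 and 591 after P3FI-90, a log2 change of 0.10 (SE 0.095, adjusted p = 0.360).

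Of the 3 sulfatases and the sulfamidase, 1 was higher, 2 were lower and 1 did not pass the test. The shares over all genes tested were 39.9% higher and 39.4% lower. Arsa, which desulfates the lipid sulfatide, had 2137, 2046 and 2060 normalized counts in DMSO and 1510, 1365 and 1348 after P3FI-90, a log2 change of -0.56 (SE 0.056, adjusted p = 3.53e-07). Ids, the iduronate sulfatase, fell from 1816 ± 91.5 to 1458 ± 117 normalized counts (log2 fold change -0.32), and this call was lost with total counts. Arsb, which acts on dermatan sulfate, rose from 1444 ± 59.6 to 1707 ± 111 (log2 fold change 0.24). Sgsh, the sulfamidase, had 907, 937 and 1032 normalized counts in DMSO and 1055, 954 and 1055 after P3FI-90, a log2 change of 0.09 (SE 0.072, adjusted p = 0.261). The genes that act in turn on heparan sulfate had no common direction. Idua rose, Ids and Gusb fell, and Sgsh and Naglu did not pass the test. Hgsnat, a further enzyme of that chain added after its values were seen, fell (log2 fold change -0.88).

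Of the 8 hydrolases of lipids, thioesters and phosphates, 3 were higher, 2 lower and 3 did not pass the test. All genes tested had shares of 39.9% higher and 39.4% lower. Smpd1, the acid sphingomyelinase that makes ceramide, had 867, 951 and 829 normalized counts in DMSO and 1701, 1441 and 1498 after P3FI-90, a log2 change of 0.81 (SE 0.075, adjusted p = 1.91e-07). Asah1, the acid ceramidase that consumes it, had 6589, 7061 and 6744 normalized counts in DMSO and 7066, 7008 and 7458 after P3FI-90, a log2 change of 0.08 (SE 0.039, adjusted p = 0.0770). The difference of Asah1 did not pass the threshold here, but did with total counts (log2 fold change 0.29), with DESeq2 (0.088), with at least 10 counts in every library (0.097) and without the second DMSO library (0.10). Plbd2, a putative phospholipase, rose from 2201 ± 90.1 to 3377 ± 93.1 normalized counts (log2 fold change 0.62), and Ppt2, a thioesterase, from 879 ± 63.0 to 1069 ± 55.4 (log2 fold change 0.28).

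Lipa (ENSMUSG00000024781), the acid lipase that releases cholesterol from the esters of internalized lipoproteins, had 951, 995 and 1026 normalized counts in DMSO and 647, 654 and 681 after P3FI-90, a log2 change of -0.59 (SE 0.069, adjusted p = 2.38e-06). It fell while Npc1, which exports the freed cholesterol, rose. Pla2g15, a lysosomal phospholipase, had a log2 change of -0.16 (SE 0.067, adjusted p = 0.0409), the weakest call among the 45, and it was not called in 10 of the 16 alternatives. Ppt1, the palmitoyl thioesterase, had 2200, 2324 and 2213 normalized counts in DMSO and 2487, 2234 and 2256 after P3FI-90, a log2 change of 0.05 (SE 0.055, adjusted p = 0.405). The acid phosphatase gene Acp2 had 1117, 1166 and 1110 normalized counts in DMSO and 1074, 1092 and 1229 after P3FI-90, with overlapping groups and a log2 change of 0.0012 (SE 0.067).

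The 4 soluble cofactors and carriers split evenly, with 2 higher and 2 lower, where 39.9% of all genes tested were higher and 39.4% lower. Grn, which encodes progranulin, had 5759, 6219 and 6058 normalized counts in DMSO and 8934, 9304 and 8948 after P3FI-90, a log2 change of 0.59 (SE 0.038, adjusted p = 2.94e-09). Psap, the precursor of the saposins that present sphingolipids to their hydrolases, rose from 12323 ± 366 to 14275 ± 92.7 normalized counts (log2 fold change 0.21). Gm2a, the activator that presents GM2 ganglioside for degradation, had 2377, 2316 and 2200 normalized counts in DMSO and 1438, 1395 and 1525 after P3FI-90, a log2 change of -0.66 (SE 0.054, adjusted p = 4.42e-08). Npc2, which hands cholesterol to NPC1 inside the lysosome, fell from 9455 ± 232 to 8644 ± 34.8 (log2 fold change -0.13). This small fall turned into a rise with total counts (0.085).

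The genes of mannose 6-phosphate sorting also moved apart. Igf2r (ENSMUSG00000023830), the large cation-independent receptor, had 7944, 8370 and 8270 normalized counts in DMSO and 11675, 11346 and 12345 after P3FI-90, a log2 change of 0.52 (SE 0.038, adjusted p = 1.32e-08). The size of this rise depended on the setting, with log2 fold changes from 0.17 to 0.74 over the 16 alternatives, all of which kept the call. M6pr, the small cation-dependent receptor, had 4264, 3862 and 4133 normalized counts in DMSO and 3624, 3769 and 3565 after P3FI-90, a log2 change of -0.16 (SE 0.045, adjusted p = 0.00436), which became 0.052 with total counts. Gnptab, the alpha and beta subunits of the phosphotransferase that adds the tag, fell from 3251 ± 74.3 to 2389 ± 86.1 normalized counts (log2 fold change -0.44).

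Since a ratio of 2 genes within a library does not depend on how libraries are scaled, 6 pairs of genes were set against each other, chosen after their values had been seen. They are related or cooperating proteins, and not all of them work in one complex. Because of that choice the ratios are a description, with no test. The ratio of Npc1 to Npc2 counts was 0.0733, 0.0620 and 0.0834 in DMSO and 0.323, 0.302 and 0.307 after P3FI-90, a 4.29-fold difference. Gnptg encodes the gamma subunit of the phosphotransferase, and its ratio to Gnptab was 0.113, 0.115 and 0.110 in DMSO and 0.473, 0.386 and 0.416 after P3FI-90. Neu1 and its protective protein Ctsa had a ratio of 0.160 ± 0.0088 in DMSO and 0.487 ± 0.015 after P3FI-90. The ratio of Igf2r to M6pr went from 2.01 ± 0.15 to 3.23 ± 0.23, that of Laptm4b to Laptm4a from 0.360 ± 0.018 to 0.619 ± 0.043 and that of Ctsd to Ctsb from 0.468 ± 0.016 to 0.879 ± 0.016.

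**Figure D3:**
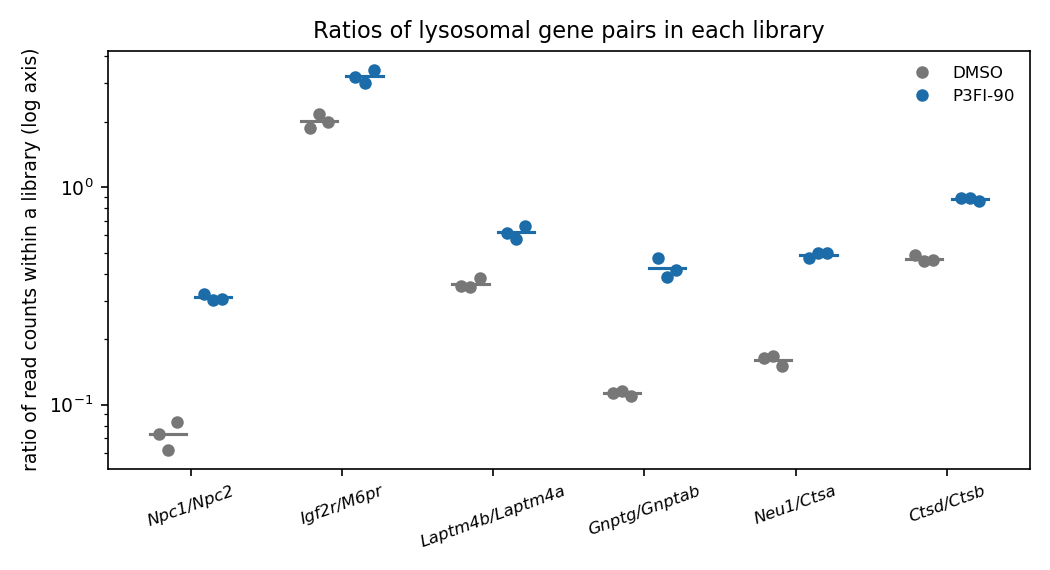
Ratio of read counts of 2 genes within a library (vertical log axis) for 6 pairs (horizontal axis), with one point per library, DMSO in grey and P3FI-90 in blue, and a bar at the mean of 3 libraries. The blue points lie above the grey ones in each pair, from 1.61-fold for Igf2r/M6pr to 4.29-fold for Npc1/Npc2.

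Levels of different genes were compared per length, as normalized counts per kb of the longest annotated transcript. Lamp1 had the highest level in both groups, with 10264 per kb in DMSO and 13550 per kb after P3FI-90. In DMSO it was followed by Ctsz at 5480, Ctsl at 5284, Laptm4a at 5214 and Psap at 4638 per kb. The positions of neighbours in this order depend on the transcript chosen, and with the mean transcript length Ctsl came first and Lamp1 second. Gusb went from place 10 in DMSO, at 2581 per kb, to place 21 after P3FI-90, at 849 per kb. Across the 52 genes the log2 fold change had a Spearman correlation of -0.29 with the DMSO level per kb, -0.051 with transcript length and 0.17 with GC content, given as a description since the genes share their libraries and depth.

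**Figure D4:**
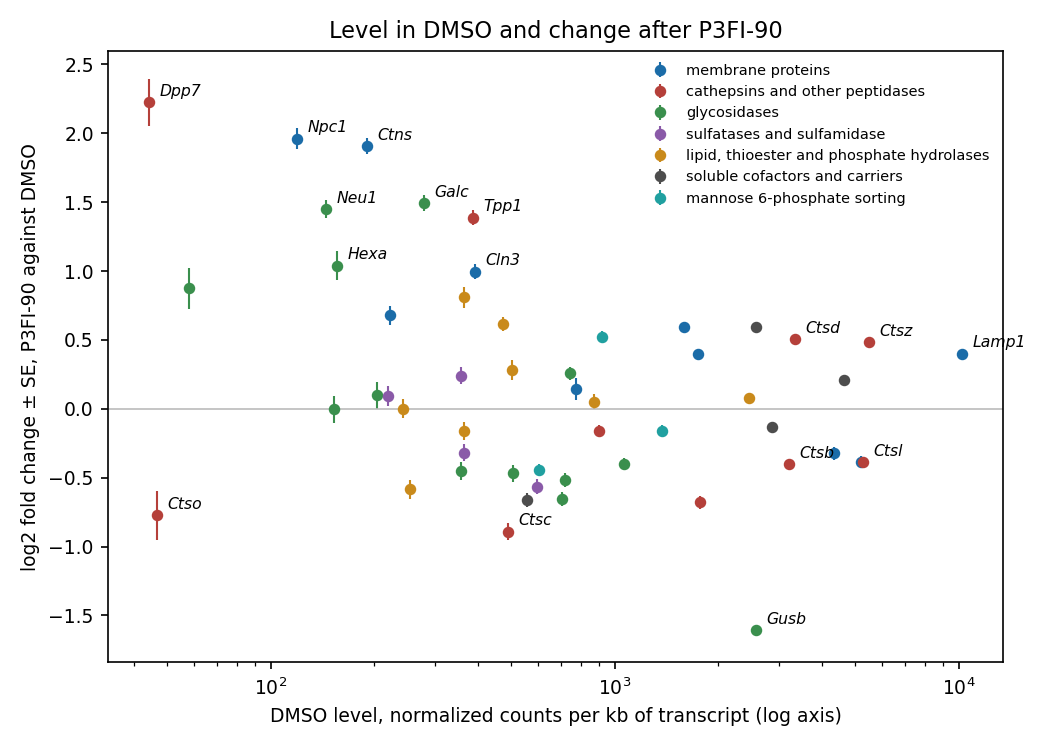
Log2 fold change ± SE of P3FI-90 against DMSO (vertical axis) against the DMSO level in normalized counts per kb of the longest transcript (horizontal log axis), one point per tested lysosomal gene, coloured by role. The genes that rose by more than 1 on the log2 scale lie between 44.3 and 389 counts per kb, and Gusb stands apart at 2581 counts per kb and -1.60.

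A list of 42 other lysosomal genes, chosen with earlier results of these data known, was examined in the same way. Its shares are therefore a description and cannot show an excess over all genes. Of the 42 genes, 24 were higher (57.1%, against 39.9% of all genes tested), 10 were lower (23.8%, against 39.4%) and 8 did not pass the test. Their median log2 fold change was 0.30. With total counts, 29 were higher (69.0%, against 50.3% of all genes tested) and 6 lower (14.3%, against 29.6%). Clcn7, the chloride-proton exchanger of the lysosomal membrane, had 1186, 1159 and 1199 normalized counts in DMSO and 6262, 6035 and 6267 after P3FI-90, a log2 change of 2.39 (SE 0.042, adjusted p = 8.82e-15). Mcoln1, the calcium channel TRPML1, rose from 1054 ± 23.1 to 3274 ± 135 normalized counts (log2 fold change 1.63), and Arl8b, a GTPase that moves lysosomes along microtubules, from 3071 ± 113 to 6895 ± 58.3 (log2 fold change 1.17). The hyaluronidase gene Hyal1, named after its values were seen, had 135, 74.7 and 108 normalized counts in DMSO and 640.0, 790.4 and 705 after P3FI-90 (log2 fold change 2.74), while Hyal2 fell. Dnase2a, the DNase that digests DNA in lysosomes, and Tmem175, a lysosomal potassium channel, were named in the same way and had log2 changes of -1.25 and -1.22.

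Transcripts of the TFEB family, the factors known to drive lysosomal genes, did not move together. Mitf had 163, 167 and 161 normalized counts in DMSO and 512, 441 and 426 after P3FI-90, a log2 change of 1.49 (SE 0.12, adjusted p = 4.78e-08). Tfe3 fell from 2541 ± 38.1 to 1971 ± 135 normalized counts (log2 fold change -0.37), Tfeb went from 446 ± 38.6 to 404 ± 9.08 (log2 fold change -0.15, adjusted p = 0.196), and Tfec had 0 counts in every library.

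Since these factors bind E-boxes, reference promoters of the lysosomal genes, 250 bases before to 50 after each start in RefSeq on build GRCm38.p6, were searched for CACGTG and for the longer TCACGTGA, which contains it. Both read the same on either strand. Of the 55 genes, 48 had a promoter in the reference table. CACGTG was present in 14 of the 48 (29.2%), against 8.09% of 27025 genes with a promoter, and TCACGTGA in 6 (12.5%), against 1.12%. The 27025 include many genes that were not tested here, whereas most of the 48 were tested, so these shares compare unlike sets. The 14 genes with CACGTG went in both directions, with 6 higher, 4 lower, 3 not past the test and 1 not tested. Of the genes without it, 14 were higher and 15 lower, and of all genes tested 39.9% were higher and 39.4% lower. The median log2 fold change was 0.097 with CACGTG against 0.026 without it, over 13 and 32 tested genes. The 6 with TCACGTGA were Cln3, Ctsd, Dpp7 and Igf2r, which were higher, Ctsa, which was lower, and Gla, which did not pass the test. Their median was 0.52 against 0.051 in the 39 tested genes without it, of which 16 were higher and 18 lower. For CACGTG in the other lysosomal genes the medians had the opposite order, 0.24 in the 9 with it against 0.39 in the 22 without it. Of those 9, 6 were higher and 2 lower, and of the 22, 12 were higher and 5 lower. Of the 6 other lysosomal genes with TCACGTGA, 5 were higher and 1 lower, with a median of 0.90 against 0.24 in the 25 without it. Of those 25, 13 were higher and 6 lower. These medians over small sets of genes are a description. A match of letters is a description of the promoter and not a binding site. The windows around the motif are shown so that the flanks of genes with different responses can be compared, 5′ to 3′ on the strand of the gene, with TCACGTGA in capitals. The Ctsa window ends on a second CACGTG, left in lower case.
Cln3, chr7:126583335-126583374, minus strand: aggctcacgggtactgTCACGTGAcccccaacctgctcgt
Ctsa, chr2:164833744-164833783, plus strand: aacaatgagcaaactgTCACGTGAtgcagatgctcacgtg
Ctsd, chr7:142387903-142387942, minus strand: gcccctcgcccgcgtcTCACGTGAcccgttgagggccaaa
Dpp7, chr2:25356383-25356422, minus strand: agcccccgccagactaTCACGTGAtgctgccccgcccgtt
Gla, chrX:134601210-134601249, minus strand: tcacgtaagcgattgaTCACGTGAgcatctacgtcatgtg
Igf2r, chr17:12769732-12769771, minus strand: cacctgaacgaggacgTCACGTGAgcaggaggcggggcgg

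The 250 bases before the start are given for the genes with the largest rise and the largest fall among the 52, with CACGTG in capitals. This pair was picked by fold change and does not stand for the rest, as 6 genes with CACGTG were higher and 4 lower. Dpp7 (chr2:25356333-25356582, minus strand) holds the motif once, at position -73 from the start, and Gusb (chr5:130003050-130003299, minus strand) has no CACGTG in these 250 bases or the 50 that follow.
Dpp7: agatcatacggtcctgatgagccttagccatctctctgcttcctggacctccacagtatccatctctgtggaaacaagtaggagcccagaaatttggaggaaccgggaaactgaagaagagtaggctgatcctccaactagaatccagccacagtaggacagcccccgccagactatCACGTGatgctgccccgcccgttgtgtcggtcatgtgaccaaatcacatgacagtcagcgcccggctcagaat
Gusb: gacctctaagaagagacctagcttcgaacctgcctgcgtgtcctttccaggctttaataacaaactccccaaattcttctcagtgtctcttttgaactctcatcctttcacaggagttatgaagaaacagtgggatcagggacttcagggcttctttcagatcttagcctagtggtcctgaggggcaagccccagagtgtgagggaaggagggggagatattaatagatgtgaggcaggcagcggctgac

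Some of these counts depend on how shared reads were assigned. For 47 of the 55 genes, under 1% of the 50-base windows of the longest transcript occur in another gene. The exceptions include Ctsd, where 36.6% of windows are shared with the read-through gene Gm49369, which had 0 counts in 4 libraries and 23 and 21 in P3FI-90 libraries 2 and 3, and Ppt2, where 42.6% are shared with Gm20460. Exons of 15 members overlap another gene of the table, mostly on the opposite strand, and the strandedness of the counting is not given in the sources used here, so reads of such partners cannot be told apart. In DMSO, 4 such partners held more counts than the lysosomal gene summed over the libraries, namely Rmc1 at Npc1 (log2 fold change 0.49), Apobr at Cln3 (-0.66), Dgkq at Idua (0.22) and Cap1 at Ppt1 (-0.23). Partners with fewer counts were Fdft1 at Ctsb (-0.77), Nelfcd at Ctsz (-0.85), Fam171a2 at Grn (-0.79) and Grtp1 at Lamp1 (0.66). Tmppe, on the same strand as Glb1, had a log2 fold change of -0.89, Card14 at Sgsh 1.45 and Ddb2 at Acp2, with counts close to those of Acp2, 0.33.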

How the data were processed

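RNA-seq of 6 libraries of 4T1 cells was deposited as 1 table of read counts per gene, which the authors had not normalized. The submitters' processing notes name HISAT2, StringTie, CASAVA and the build GRCm39, with no versions. How reads were counted, and whether strand was used, are not given in the sources used here. Of 22401 rows, 296 carry no gene identifier and were left out, with 0.483% to 0.556% of the counts.

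Samples were grouped by their labels as DMSO (n = 3) or P3FI-90 (n = 3). Genes passing edgeR's filterByExpr were fitted with the quasi-likelihood test (edgeR 4.0.16 in R 4.3.3, TMM normalization), p-values were Benjamini-Hochberg adjusted over all 12288 genes, and an adjusted p under 0.05 was called. Fold changes are P3FI-90 against DMSO. On simulated counts for these 12288 genes, 180 of 200 changed genes were found. Only those 200 were changed, with rises and falls in equal number and a common dispersion for all genes. The simulation therefore does not show sensitivity or scaling where most genes change, as here. Alternatives were DESeq2 size factors, total counts, upper-quartile scaling, no filter, at least 10 counts in every library, limma-voom and limma (3.58.1) on log2(CPM + 1), DESeq2 1.42.0, a replicate block, removal of a trend on length and GC content (splines, 4 df), and leaving out each library. Samples with the same replicate number did not deviate together (correlations -0.049, -0.031 and -0.027), so no pairing was used.

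The gene lists and members were chosen with earlier results of these data known. Named in each role group were the members with up to 2 largest rises and 2 largest falls among those called with non-overlapping groups, the member with the highest mean, and every member not tested or not called. From the other lysosomal genes, the 3 with the smallest p were named, and the TFEB family in full. Other genes were named after their values were seen, namely the remaining members, Gnptg, Hgsnat, Hyal1, Dnase2a, Tmem175, Fuca2 and Man2b2. Some further genes are not reported here. Transcript lengths, GC content and overlaps came from GENCODE M21 and promoters from RefSeq, both on GRCm38, whereas the counts were made on GRCm39. Total counts per library, 31327094 to 37395732, set the precision, and the floor for a count of 0 was 3 counts.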

Additional observations from a re-analysis of the deposited data

How the results depend on the processing

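Of the 45 lysosomal genes called, 40 kept their call and direction in all 16 alternatives. The exceptions were Ctsa, Ids, M6pr, Npc2 and Pla2g15. Of the 7 not called, 6 were called higher in at least 1 alternative, each of them with total counts, and Tmem192 (0.38) and Naglu (0.33) also with the length and GC trend removed, Tmem192 also without the third P3FI-90 library (0.22), and Gla in none. With total counts, Ctsa became 0.057, M6pr 0.052, Npc2 0.085 and Pla2g15 0.054 on the log2 scale, Gla 0.21 and Tfeb 0.069, as all genes shifted by 0.21 with that scaling. With the trend on length and GC content removed, Pla2g15 became 0.0041, Gla 0.0027, Tfeb 0.11 and Acp2 -0.13. Gla and Acp2, both near 0, changed sign in further settings. Gla was 0.0060 with DESeq2 size factors, 0.0062 with DESeq2, 0.0079 with limma-voom and 0.015 with at least 10 counts in every library. Acp2 was -0.038 with upper-quartile scaling, -0.0052 with no filter, -0.0013 with limma-voom, -0.0011 with limma on log2(CPM + 1) and -0.00068 with the replicate block. Leaving out 1 library in turn gave -0.048 to 0.074 for Gla and -0.066 to 0.036 for Acp2, and from -0.0015 (without the first P3FI-90 library) to 0.077 for Ppt1. The cause was not tested.

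The median of the 52 lysosomal genes, 0.085 as reported, was 0.30 with total counts, 0.046 with upper-quartile scaling, 0.10 with at least 10 counts in every library and 0.11 with the length and GC trend removed. Leaving out 1 library gave medians from 0.050 (without the first DMSO library) to 0.10. Relative to the median of all genes, it was 0.072 higher as reported, 0.025 higher without the first DMSO library and 0.12 higher with the length and GC trend removed, and its difference was -0.021 with no filter. Levels per kb with the mean in place of the longest transcript length had a Spearman correlation of 0.972 with those reported over the 55 genes. The number of other lysosomal genes that were lower went from 10 to 6 with total counts. With a replicate block, 23 lysosomal genes were higher and 21 lower, and Pla2g15 lost its call (adjusted p = 0.0673). Since the replicate numbers do not pair the samples, this says nothing of a weaker effect. With 3 libraries a group, the precision of single genes rests on the spread estimated across all genes.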
